A study of Homo sapiens with 26 samples.

Results

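VIM, CD44, CAV1, CAV2, TGFB2, TGFBR2, THBS1, FN1, TAGLN and S100A6 are 10 genes of the mesenchymal, caveolar and transforming growth factor beta (TGF-beta) programmes. They were found by symbol in RNA sequencing tables of human small cell lung cancer lines, as 10 of 19128 genes in the POU2F3 knockout tables and 10 of 19117 genes in the table of parental lines. In NCI-H211, 9 of the 10 genes were higher in POU2F3 knockout cells than in control cells by at least 1 on the log2 scale, beside 6.47% of all counted genes, and TGFB2, THBS1 and VIM by more than 5. The other knockout lines showed fewer of them. NCI-H1048 had 4 of 7 counted (1.17% of genes), COR-L311 had 3 of 4 (3.98%), and NCI-H526 had 0 of 3 (1.86%). The 3 in COR-L311, and TGFB2, TGFBR2, THBS1 and FN1 in NCI-H211, were under 1 FPKM (a unit defined below) in control cells. Such genes are counted only where they are higher in knockout cells, so their direction was set by the counting rule. CD44 was higher in 4 of 4 lines, as were 9.81% of tested genes. None of the 5 members that passed the filter on low values, and none of the other 5 without that filter, passed the threshold across lines.

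TGF-beta ligands are secreted in a latent form, are released in the matrix, and signal through paired type II and type I receptor kinases to SMAD transcription factors. In epithelial and tumour cells the pathway is best known for inducing matrix, actin and intermediate filament genes in the epithelial to mesenchymal transition. Caveolae are flask-shaped pits of the plasma membrane, built from caveolins and cavins, that buffer membrane tension and hold signalling receptors.

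The knockout cells were NCI-H211, NCI-H1048, NCI-H526 and COR-L311, each infected by lentivirus with the guides sgPOU2F3e10.1 or sgPOU2F3e10.2 (together sgPOU2F3), against the control guide sgNeg. Harvest was at day 4 for NCI-H211 and NCI-H1048 and at day 5 for NCI-H526 and COR-L311, so day and line cannot be told apart. The deposited tables hold 1 sgPOU2F3 column per line that combines the 2 guides and 1 sgNeg column, which leaves no spread within a line and makes the line the replicate (n = 4). The same 4 lines (the knockout lines) and 10 other small cell lung cancer lines were also measured as exponentially growing parental cells, 1 library per line, with no infection. Values are FPKM, fragments for each kilobase of transcript and each M (mega) of mapped fragments, and ratios are differences of log2(FPKM + 1), sgPOU2F3 minus sgNeg, a scale that understates the change of genes near 0. NCI-H1048 was grown in HITES, a defined hormone-supplemented medium, and NCI-H128 in RPMI with 20% serum, while the labels give either RPMI with 10% serum or HITES for the rest. The cells are infected populations, and the sources used here do not say that edited cells were cloned or selected. In such bulk samples a larger share of cells with a transcript and more transcript per cell cannot be told apart.

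POU2F3 itself, the transcription factor of tuft cells (chemosensory epithelial cells), was at 6.95% of its sgNeg level in NCI-H211 and at 80.4% in COR-L311, with NCI-H1048 (30.7%) and NCI-H526 (40.7%) between them. The summed FPKM of 10 tuft cell markers was 201 to 887 in sgPOU2F3 columns and 682 to 1796 in sgNeg columns. In parental cells it was 658 to 1559 in the 4 knockout lines and 1.66 to 34.0 in the 10 others. Estimated depth was 18.3 to 29.6 M fragments in the combined columns, 9.62 to 15.5 M in sgNeg columns and 9.74 to 31.1 M in parental libraries. Genes listed at 0 made up 13.8% to 15.9% of the combined columns and 18.3% to 21.5% of sgNeg columns, so a faint transcript is more often listed above 0 in sgPOU2F3. Of 10 fibroblast markers, 1 to 3 reached 1 FPKM in sgPOU2F3 columns and 1 to 3 in sgNeg columns, with sums of 17.1 to 90.2 and 11.5 to 121 FPKM.

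The promoters of the ligand, its receptor and THBS1 are printed because these were among the genes that differed most in NCI-H211 and because they hold the letters searched. The windows run from 250 bases before to 50 bases after the transcript start in RefSeq on GRCh38.p14, on the strand of the gene. Capitals mark GGAATG on either strand, the core of the site of TEAD factors (the DNA-binding partners of YAP and TAZ), or TGANTCA, the site of AP-1 (the FOS and JUN dimers).
TGFB2, chr1:218345086-218345385, plus strand: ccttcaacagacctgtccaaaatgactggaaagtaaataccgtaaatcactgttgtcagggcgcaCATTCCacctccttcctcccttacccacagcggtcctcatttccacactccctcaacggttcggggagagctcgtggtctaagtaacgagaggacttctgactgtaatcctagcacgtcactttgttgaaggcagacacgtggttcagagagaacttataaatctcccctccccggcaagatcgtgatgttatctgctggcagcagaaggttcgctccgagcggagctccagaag
THBS1, chr15:39580829-39581128, plus strand: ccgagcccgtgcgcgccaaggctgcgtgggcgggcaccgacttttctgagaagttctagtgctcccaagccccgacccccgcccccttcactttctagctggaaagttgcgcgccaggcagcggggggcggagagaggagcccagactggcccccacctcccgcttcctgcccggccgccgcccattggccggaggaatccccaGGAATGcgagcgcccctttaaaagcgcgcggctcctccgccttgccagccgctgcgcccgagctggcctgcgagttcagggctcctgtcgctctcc
TGFBR2, chr3:30606351-30606650, plus strand: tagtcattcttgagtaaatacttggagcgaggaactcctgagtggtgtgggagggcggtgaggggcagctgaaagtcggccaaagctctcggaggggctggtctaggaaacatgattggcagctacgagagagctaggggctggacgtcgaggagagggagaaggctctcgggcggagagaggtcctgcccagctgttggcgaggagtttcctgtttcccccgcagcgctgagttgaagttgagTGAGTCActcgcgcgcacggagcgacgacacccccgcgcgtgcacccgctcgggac
A promoter entry was found for 9 of the 10 members, with 13 windows among them. GGAATG, read on both strands, was in the promoters of 2 members, TGFB2 (as CATTCC, starting 185 bases before the start site) and THBS1 (46 bases before it), in 2 of the 13 windows, while 14.03% of all 35116 promoter windows of the same length held it. TGANTCA was in 1 member, TGFBR2, where it began 6 bases before the start site and read TGAGTCA (1 of the 13 windows), against 7.71% of all windows. GGGCGG, the core letters bound by Sp1, was in 11 of the 13 windows, of 8 of the 9 members, against 45.0% of all windows. TATAAA was found in TGFB2, against 11.5% of all promoters. The octamer ATGCAAAT, the site of POU-family factors such as POU2F3, was in 0 of the 9 members and in 1.77% of all promoters. No member had CACCTG, the E-box letters of ZEB and SNAI factors (20.6% of all promoters), or the CArG box of serum response factor (1.29%). A match is a run of letters and not a measured site, and a window without a match says nothing of the factor.

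The knockout question for these genes was whether their transcripts differed after loss of POU2F3. Within each line the genes counted were those with an average of at least 1 FPKM over the 2 columns. A log2 ratio of at least 1 was reached upwards by 9 of 10 counted members in NCI-H211, where 6.47% of all counted genes did so. In NCI-H1048 it was 4 of 7 members, VIM, CD44, THBS1 and S100A6, beside 1.17% of genes. In COR-L311 it was 3 of 4, CD44, TGFB2 and S100A6, beside 3.98% of genes, and in NCI-H526 0 of 3, beside 1.86%. A gene under 1 FPKM in sgNeg cells is counted only where it is higher in sgPOU2F3 cells. That holds for CD44, TGFB2 and S100A6 in COR-L311 and for TGFB2, TGFBR2, THBS1 and FN1 in NCI-H211. For them the direction was set by the counting rule. No member was lower by at least 1 in any line, while 4.88%, 1.0%, 0.489% and 2.16% of all counted genes were lower in NCI-H211, NCI-H1048, NCI-H526 and COR-L311. On this scale a gene under 1 FPKM in sgNeg cells cannot be lower by 1. Most members in NCI-H526 and COR-L311 started there, so the lack of lower members was largely fixed in advance in those lines. VIM in COR-L311 was one, at 0.0226 FPKM in sgPOU2F3 and 0.335 FPKM in sgNeg cells. These counts compare single columns and carry no test. Across all 10 members, counted or not, the median log2 ratio of NCI-H211 was 3.80, that of NCI-H1048 0.48, that of NCI-H526 0.12 and that of COR-L311 0.04, while the median of all counted genes lay between -0.036 and -0.0033. The medians of NCI-H526 and COR-L311 are set largely by members near 0 FPKM. Over the counted members alone the medians were 3.80, 1.49, 0.24 and 1.26 in NCI-H211, NCI-H1048, NCI-H526 and COR-L311. The median of COR-L311 rests on 4 members, 3 of them counted only through sgPOU2F3 cells.

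**Figure D1:**
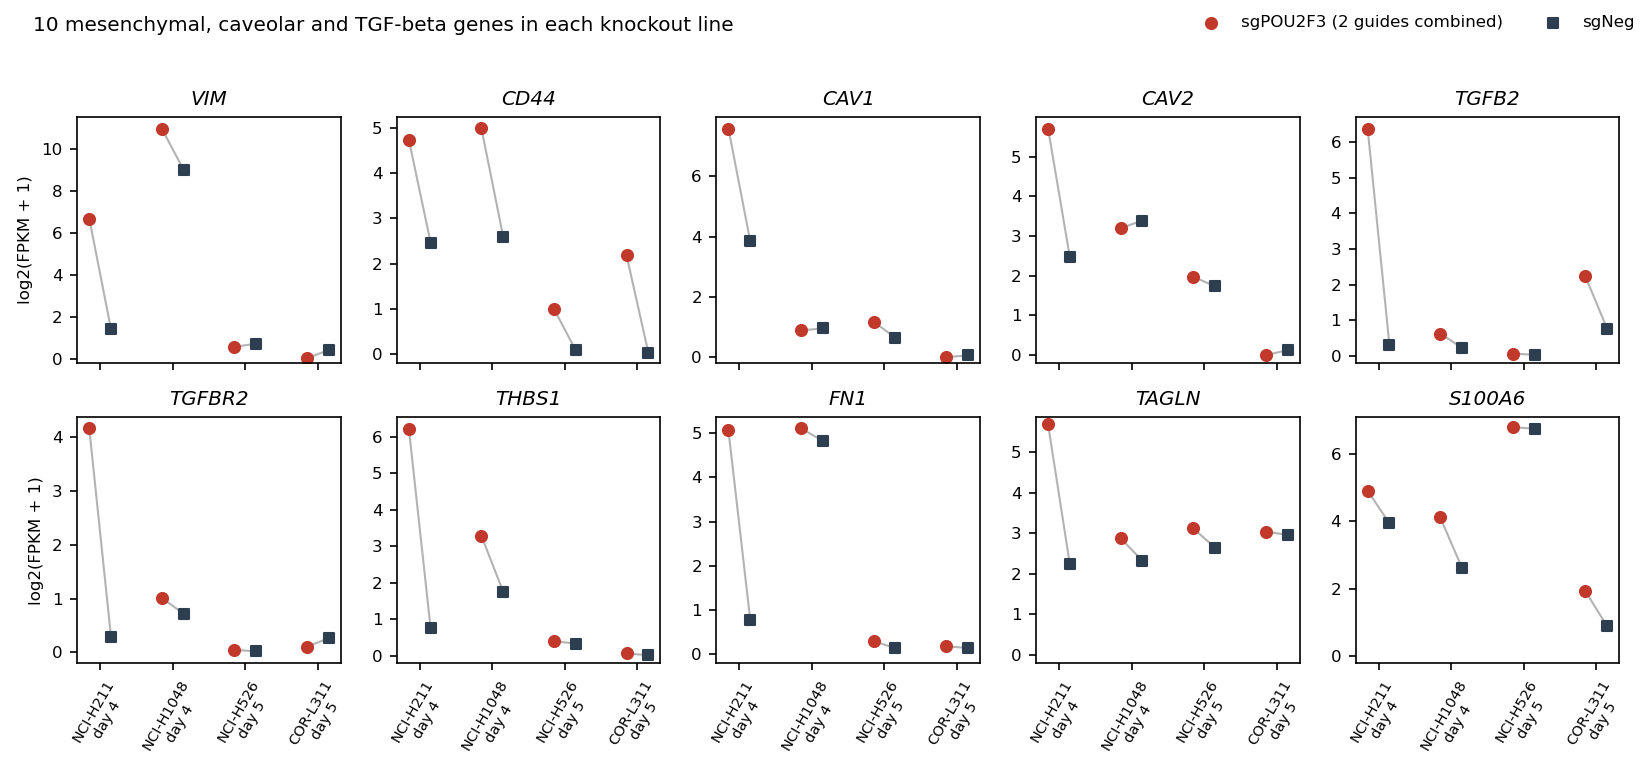
Expression of the 10 genes as log2(FPKM + 1) in the sgPOU2F3 (circles) and sgNeg (squares) columns of the 4 knockout lines, 1 panel per gene with its own axis; each point is 1 deposited column and a grey line joins the columns of 1 cell line. In NCI-H211 each of the 10 sgPOU2F3 points lies above its sgNeg point, from S100A6 (28.8 against 14.3 FPKM) to TGFB2 (82.5 against 0.237 FPKM).

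TGFB2 encodes a secreted TGF-beta ligand. Its level in NCI-H211 was 82.5 FPKM in sgPOU2F3 cells, against 0.237 FPKM in sgNeg cells. COR-L311 had 3.70 FPKM in sgPOU2F3 cells, against 0.699 FPKM in sgNeg cells. The remaining lines stayed under 1 FPKM in both arms, with 0.547 and 0.172 FPKM in NCI-H1048 sgPOU2F3 and sgNeg cells and 0.0470 and 0.0211 FPKM in NCI-H526. The log2 ratio of 6.08 in NCI-H211 ranked 5 of 11989 genes there. The related ligand gene TGFB1 was not higher with it, at 11.9 FPKM in sgPOU2F3 cells and 13.3 FPKM in sgNeg cells of NCI-H211. The ligand gene TGFB3 was higher there, at 40.7 FPKM in sgPOU2F3 cells and 7.38 FPKM in sgNeg cells, a log2 ratio of 2.31.

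TGFBR2 encodes the type II receptor, which binds the ligand and activates the type I receptor. NCI-H211 had 16.8 FPKM in sgPOU2F3 cells, against 0.217 FPKM in sgNeg cells, a log2 ratio of 3.87. NCI-H1048 had 1.02 FPKM in sgPOU2F3 cells and 0.644 FPKM in sgNeg cells. Both arms of NCI-H526 and COR-L311 were at or below 0.201 FPKM. So NCI-H211 was the single line with ligand and receptor both above 10 FPKM after knockout. TGFBR1, the type I receptor, was present there in both arms, at 15.1 FPKM in sgPOU2F3 cells and 9.80 FPKM in sgNeg cells.

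THBS1 encodes thrombospondin 1, a matrix protein that can activate latent TGF-beta and whose gene is induced by the pathway. Its level was 73.4 FPKM in sgPOU2F3 cells of NCI-H211, against 0.682 FPKM in sgNeg cells, and ranked 11 by log2 ratio (5.47). In NCI-H1048 sgPOU2F3 cells had 8.75 FPKM, against 2.37 FPKM in sgNeg cells, a log2 ratio of 1.53. The uninfected parental NCI-H1048 library, scaled in another table, had 8.25 FPKM, close to the knockout column and above the sgNeg column. NCI-H526 and COR-L311 were at or below 0.319 FPKM in both arms.

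FN1 encodes fibronectin, a matrix glycoprotein bound by integrins. In NCI-H211 it was 32.3 FPKM in sgPOU2F3 cells, against 0.722 FPKM in sgNeg cells, a log2 ratio of 4.27. In NCI-H1048 it was high in both arms, with 33.4 FPKM in sgPOU2F3 cells and 27.2 FPKM in sgNeg cells. The FPKM of NCI-H211 knockout cells was thus near that of NCI-H1048 cells in either arm, though each line has its own table and their scaling is not given. In NCI-H526 and COR-L311 FN1 stayed at or below 0.234 FPKM.

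The caveolin genes CAV1 and CAV2, whose products assemble together into the coat of caveolae, differed in NCI-H211 and hardly elsewhere. CAV1 had 191 FPKM in sgPOU2F3 cells of NCI-H211, against 13.4 FPKM in sgNeg cells, a log2 ratio of 3.74. CAV2 had 51.3 FPKM in sgPOU2F3 cells and 4.56 FPKM in sgNeg cells, a log2 ratio of 3.24. The pair parted in NCI-H1048, where CAV2 was present in both arms, at 8.18 FPKM in sgPOU2F3 and 9.49 FPKM in sgNeg cells, and CAV1 was under 1 FPKM, at 0.847 and 0.929 FPKM. NCI-H526 had 1.25 FPKM of CAV1 in sgPOU2F3 cells and 0.563 FPKM in sgNeg cells, and 2.93 and 2.33 FPKM of CAV2. In COR-L311 sgPOU2F3 cells both were listed at 0, against 0.0363 FPKM of CAV1 and 0.0899 FPKM of CAV2 in sgNeg cells. PTRF, which encodes cavin-1 and was named here after its values were seen, had 38.5 FPKM in sgPOU2F3 cells and 0.672 FPKM in sgNeg cells of NCI-H211.

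VIM encodes vimentin, the intermediate filament protein of mesenchymal cells. Its ratio was positive in the day 4 lines alone. NCI-H211 had 101 FPKM in sgPOU2F3 cells, against 1.64 FPKM in sgNeg cells, a log2 ratio of 5.27 that ranked 17 of 11989 genes. NCI-H1048 had 1968 FPKM in sgPOU2F3 cells, against 507 FPKM in sgNeg cells, a log2 ratio of 1.95 that ranked 34 of 12262 genes. By FPKM it ranked 7 among all transcripts of the knockout cells there and 94 in the control cells, so it was abundant in both arms. The day 5 lines had little of it, with 0.483 FPKM in sgPOU2F3 and 0.650 FPKM in sgNeg cells of NCI-H526, and 0.0226 and 0.335 FPKM in COR-L311. VIM was therefore higher in sgPOU2F3 in both day 4 lines and lower in both day 5 lines, a pattern that 6.37% of all tested genes had.

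TAGLN encodes transgelin, an actin-binding protein of smooth muscle. Unlike the other members it was present at 3.72 to 6.78 FPKM in the sgNeg cells of all 4 lines. Its sgPOU2F3 level was 50.3 FPKM in NCI-H211, against 3.72 FPKM in sgNeg cells, a log2 ratio of 3.44. The other lines differed little, with 6.33 FPKM in sgPOU2F3 and 4.01 FPKM in sgNeg cells of NCI-H1048, 7.69 and 5.26 FPKM in NCI-H526, and 7.22 and 6.78 FPKM in COR-L311. TAGLN overlaps PCSK7 in RefSeq on GRCh38.p14, and whether counting used strand is not given in the sources used here. PCSK7 had log2 ratios of 0.42, 0.09, 0.28 and -0.12 in NCI-H211, NCI-H1048, NCI-H526 and COR-L311.

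CD44 encodes the main cell surface receptor for hyaluronan. NCI-H211 had 25.7 FPKM in sgPOU2F3 cells, against 4.51 FPKM in sgNeg cells. NCI-H1048 had 30.8 FPKM in sgPOU2F3 cells, against 5.04 FPKM in sgNeg cells. COR-L311 had 3.53 FPKM in sgPOU2F3 cells, against 0.0215 FPKM in sgNeg cells. That control value is below 0.0324 FPKM, the least that 1 fragment of a 2000 base transcript is worth in any sgNeg column, so CD44 was hardly detected there. NCI-H526 had 0.996 FPKM in sgPOU2F3 cells and 0.0553 FPKM in sgNeg cells. The log2 ratios of 2.28, 2.40, 2.15 and 0.92 in NCI-H211, NCI-H1048, COR-L311 and NCI-H526 had the same sign, and CD44 ranked 18 of 12262 genes in NCI-H1048 and 85 of 11917 in COR-L311. With S100A6, it was a member whose ratio in NCI-H211 was not the highest of the 4.

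S100A6 encodes calcyclin, a small calcium-binding protein. It was the member with the smallest ratio in NCI-H211, with 28.8 FPKM in sgPOU2F3 cells and 14.3 FPKM in sgNeg cells (log2 ratio 0.96, just under the size counted). NCI-H1048 had 16.3 FPKM in sgPOU2F3 cells and 5.14 FPKM in sgNeg cells. COR-L311 had 2.82 FPKM in sgPOU2F3 cells and 0.851 FPKM in sgNeg cells. In NCI-H526, the line with the most S100A6, the arms were level at 109 FPKM in sgPOU2F3 and 106 FPKM in sgNeg cells.

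**Figure D2:**
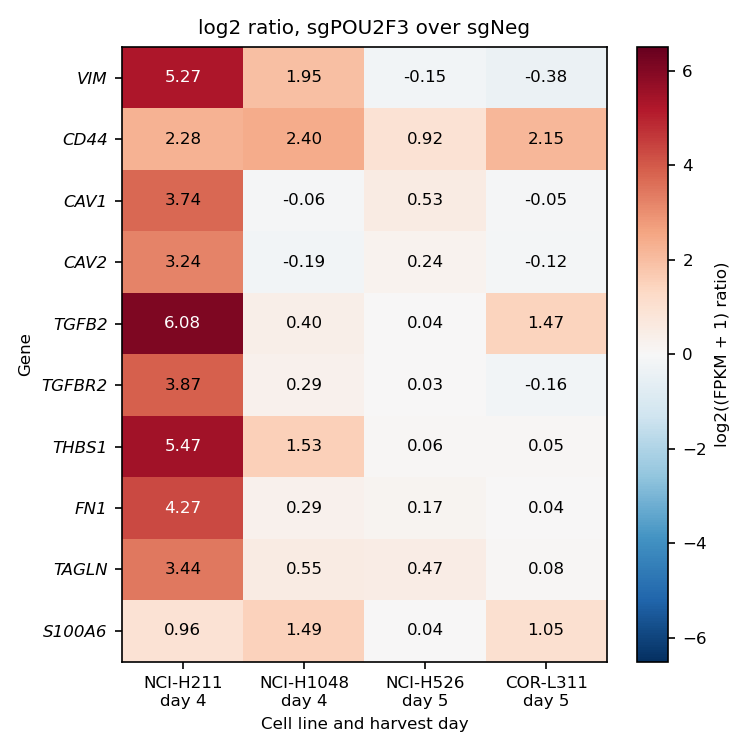
Heat map of the log2 ratio, sgPOU2F3 minus sgNeg on the log2(FPKM + 1) scale, with genes as rows and the 4 lines with their harvest day as columns; red is higher in sgPOU2F3 and blue is lower. The NCI-H211 column is the reddest for 8 of the genes, while CD44 lies between 0.92 and 2.40 in all 4 lines.

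Across the 4 lines, limma was fitted to the 12387 genes with at least 1 FPKM in at least 4 of the 8 columns, with line and arm as terms. VIM, CD44, CAV2, TAGLN and S100A6 passed that filter, and CAV1, TGFB2, TGFBR2, THBS1 and FN1 did not. None of the 5 tested members passed an adjusted p of 0.05, which 0.0161% of all tested genes did upwards (2 genes) and 0.0% downwards. At an unadjusted p under 0.05 it was 2 members, CD44 and S100A6, both higher, beside 4.67% of genes higher and 7.08% lower. CD44 was higher by 1.94 ± 0.68 (mean log2 ratio and SD, n = 4 lines, SE 0.26, limma adjusted p = 0.23), and in 4 of 4 lines. S100A6 was higher by 0.88 ± 0.61 (SD, n = 4 lines, limma adjusted p = 0.39), also in 4 of 4 lines. TAGLN averaged 1.14 ± 1.55 and was higher in 4 of 4 lines (SD, limma adjusted p = 0.47). Of all tested genes, 9.81% were higher in 4 of 4 lines. VIM averaged 1.67 ± 2.62 (SD, limma adjusted p = 0.51) and CAV2 0.79 ± 1.64 (SD, limma adjusted p = 0.60), each higher in 2 of 4 lines. Among the 5 members below the filter the mean log2 ratio was 1.99 ± 2.79 for TGFB2, 1.78 ± 2.56 for THBS1, 1.19 ± 2.06 for FN1, 1.04 ± 1.82 for CAV1 and 1.01 ± 1.92 for TGFBR2 (SD, n = 4 lines). In the limma fit without the filter their adjusted p was 0.59, 0.59, 0.62, 0.62 and 0.64. Apart from CD44 and S100A6, each SD was larger than its mean. Without NCI-H211 the means of VIM, CAV1, CAV2, TGFB2, TGFBR2, THBS1, FN1 and TAGLN lay at 0.47, 0.14, -0.02, 0.63, 0.05, 0.55, 0.16 and 0.37, while those of CD44 and S100A6 were 1.82 and 0.86.

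The difference of the knockout ratio between the day 4 and the day 5 lines was fitted as an interaction in limma, with 2 lines on each side and 2 residual degrees of freedom. VIM differed by 3.88 (day 4 minus day 5, log2, SE 0.97, unadjusted limma p = 0.0068, adjusted p = 0.83), with ratios of 5.27 and 1.95 against -0.15 and -0.38. It was the single member under an unadjusted p of 0.05, and 0 of 12387 genes passed the adjusted threshold, while 2.74% were higher and 2.76% lower at the unadjusted one. CAV2, TAGLN, CD44 and S100A6 differed by 1.46, 1.72, 0.80 and 0.68 with limma adjusted p = 0.83 each. Without NCI-H1048, where NCI-H211 alone stands for day 4 and is assumed to vary like the other lines, VIM (5.54, limma adjusted p = 2.09e-05), CAV2 (3.18, limma adjusted p = 0.0013) and TAGLN (3.16, limma adjusted p = 0.00098) passed, among 488 genes. Without NCI-H211, where NCI-H1048 alone stands for day 4, VIM differed by 2.22 (limma adjusted p = 0.054), CAV2 by -0.25 and TAGLN by 0.27 (limma adjusted p = 1.0 each), and 11 genes passed.

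Genes around the members were taken from lists of their pathways, several of which hold members. The matrix and caveolae lists hold 2 members each. The lists of actin, ligand, TGF-beta receptor, S100 and CD44 genes hold 1 each, so these members enter the counts again. The lists of TGF-beta targets, fibronectin and thrombospondin receptors and transition factors hold none. In NCI-H211, where 6.47% of counted genes were higher by at least 1, this was reached by 7 of 11 counted TGF-beta target genes, 9 of 11 genes of mesenchymal adhesion and matrix, 10 of 15 of actin and smooth muscle type, and 4 of 7 of caveolae. It was also reached by 5 of 9 receptors of fibronectin and thrombospondin, 7 of 13 S100 genes, 3 of 9 TGF-beta ligands and latency genes, and 4 of 15 TGF-beta receptors and SMADs. None of these 8 lists had a gene lower by as much in NCI-H211. A list gene under 1 FPKM in sgNeg cells is counted only where it is higher in sgPOU2F3 cells, and cannot be lower by 1. In NCI-H211 this held for S100A2, S100A4, S100A8, S100A9 and S100A11, and for CDKN2B, ITGA3, CNN1 and PTRF, among others. For such genes the direction was set by the counting rule. In that line 3 of 12 genes of CD44 and hyaluronan were higher and 1 lower, and 1 of 4 transition factors was higher and 1 lower. In NCI-H1048 the counts were 2 of 13 TGF-beta targets, 2 of 10 matrix genes, 0 of 16 actin genes and 0 of 4 caveolar genes, beside 1.17% of all genes. NCI-H526 had 0 of 11 TGF-beta targets, 1 of 5 matrix genes and 0 of 12 actin genes, and COR-L311 1 of 10, 2 of 6 and 0 of 11, beside 1.86% and 3.98% of all genes. No gene of these lists passed the adjusted limma threshold across lines, and the unadjusted p of the genes below was at least 0.0020.

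CTGF, a secreted matricellular protein induced by TGF-beta and by YAP, had 164 FPKM in sgPOU2F3 and 1.98 FPKM in sgNeg cells of NCI-H211, and 77.0 and 26.5 FPKM in NCI-H1048 (mean log2 ratio 2.03 ± 2.58, SD, n = 4 lines, limma adjusted p = 0.44). CDKN2B, the cell cycle inhibitor p15 and a TGF-beta target, had 15.5 FPKM in sgPOU2F3 and 0.525 FPKM in sgNeg cells of NCI-H211. SMAD7, an inhibitor of the receptor that is itself induced by the pathway, had 28.3 FPKM in sgPOU2F3 and 2.90 FPKM in sgNeg cells of NCI-H211, and 21.4 and 14.3 FPKM in NCI-H1048. Not all genes of the pathway were higher in NCI-H211. The median log2 ratio of the ligand and latency genes counted there was -0.11, and LTBP1, which stores latent TGF-beta in the matrix, had 3.74 FPKM in sgPOU2F3 and 5.70 FPKM in sgNeg cells (named after its values were seen). ITGA3, a subunit of a laminin-binding integrin that also serves as a thrombospondin receptor, had 10.5 FPKM in sgPOU2F3 and 0.0994 FPKM in sgNeg cells of NCI-H211. TMEM2, a cell surface protein of hyaluronan turnover, had 72.6 FPKM in sgPOU2F3 and 9.68 FPKM in sgNeg cells. HMMR, a hyaluronan-binding protein of the mitotic spindle, was lower in 4 of 4 lines (mean log2 ratio -0.64 ± 0.50, SD, limma adjusted p = 0.40), a pattern of 12.9% of tested genes. Further genes with the smallest p of their lists differed less or went the other way. Mean log2 ratios were 0.80 (ITGB6), 0.64 (SDC4), 0.57 (PRPH), 0.48 (CDH2), 0.38 (THBS3), 0.31 (MKL1) and 0.29 (LTBP2). They were 0.27 (INA), 0.25 (ACVR1B), 0.19 (SMAD4), -0.04 (MURC and PACSIN2), -0.23 (SRF) and -0.53 (INHBB).

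The transcription factors of epithelial to mesenchymal transition were split. ZEB2 was higher in 4 of 4 lines (mean log2 ratio 0.84 ± 0.39, SD, limma adjusted p = 0.38), and so was SNAI2 (1.44 ± 1.10, SD, limma adjusted p = 0.39), as were 9.81% of tested genes. ZEB2 was listed at 0 in sgNeg cells of NCI-H211 and COR-L311, and SNAI2 in those of NCI-H526 and COR-L311, in columns of lower depth. In NCI-H526 SNAI2 had 0.0920 FPKM in sgPOU2F3 cells. SNAI1 was lower in 4 of 4 (-0.46 ± 0.36, SD, limma adjusted p = 0.41), as were 12.9% of all tested genes. TWIST1, named after its values were seen, had 19.1 FPKM in sgPOU2F3 and 71.9 FPKM in sgNeg cells of NCI-H211. S100A2 and S100A4, relatives of S100A6 in the same calcium-binding family, were higher in 4 of 4 lines with means of 1.22 ± 0.60 and 1.29 ± 0.85 (SD, n = 4 lines, limma adjusted p = 0.34 and 0.39), beside the same 9.81% of genes. In NCI-H1048 S100A4 was faint, at 0.278 FPKM in sgPOU2F3 cells and listed at 0 in sgNeg cells.

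**Figure D3:**
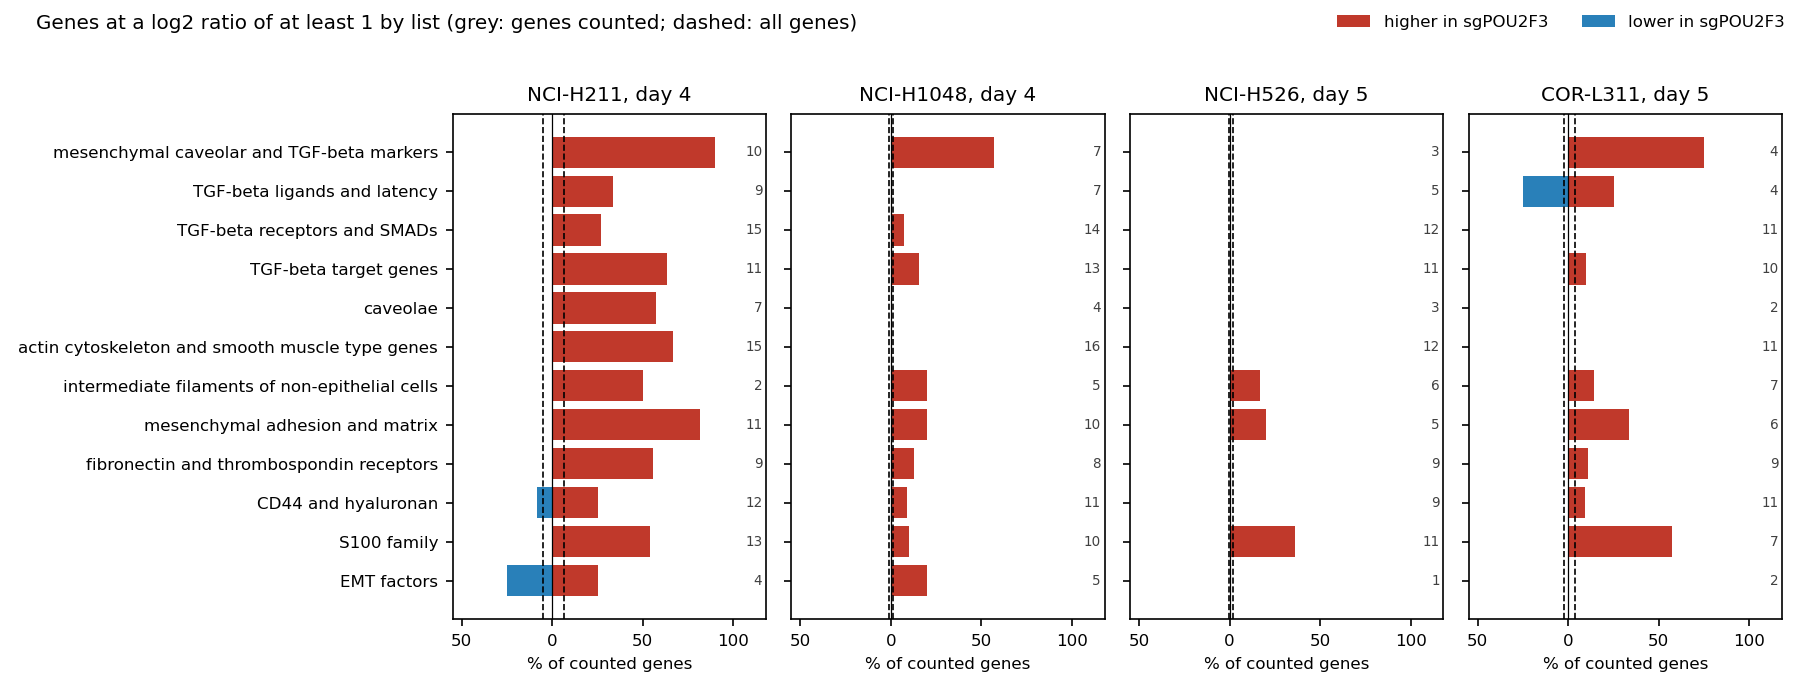
Share of the counted genes of each list that were higher (to the right, red) or lower (to the left, blue) in sgPOU2F3 by at least 1 on the log2 scale, 1 panel per line, with the number of counted genes at the right edge and dashed lines for all counted genes. Bars reach farthest in NCI-H211, where 9 of 10 members and 10 of 15 actin and smooth muscle type genes were higher, and the actin bar is empty in the other 3 lines. Genes under 1 FPKM in sgNeg cells are counted only where higher in sgPOU2F3 cells.

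Markers of other cell types were read beside these values. In NCI-H211 the 10 fibroblast markers summed to 17.1 FPKM in sgPOU2F3 and 11.5 FPKM in sgNeg cells, with LUM the highest in sgPOU2F3 at 12.3 FPKM and DCN the highest in sgNeg at 7.26 FPKM. COL6A3 was at 0 in both arms, COL1A1 was at 1.24 FPKM in sgPOU2F3 and 0.486 FPKM in sgNeg cells, and COL3A1 at 1.96 and 0.200 FPKM. The 8 endothelial markers summed to 0.668 and 0.264 FPKM. The 8 leukocyte markers summed to 8.84 FPKM in sgPOU2F3 and 4.27 FPKM in sgNeg cells, with LYZ at 6.04 and 0.514 FPKM (log2 ratio 2.22), CD3E at 0 in both arms and 3 and 1 markers at 1 FPKM or more. Neuroendocrine markers summed to 17.9 FPKM in sgPOU2F3 and 64.1 FPKM in sgNeg cells. COR-L311, where CD44, TGFB2 and S100A6 were higher, had 19.4 FPKM of endothelial markers in sgPOU2F3 and 1.14 FPKM in sgNeg cells, most of it CLDN5 at 17.8 and 0.811 FPKM, with TEK, EMCN and ROBO4 at 0 in both arms. Its fibroblast markers summed to 83.7 FPKM in sgPOU2F3 and 120 FPKM in sgNeg cells, nearly all THY1, and its neuroendocrine markers to 866 and 432 FPKM. In NCI-H1048 the fibroblast sums were 36.0 and 32.2 FPKM and the endothelial sums 0.395 and 0.314 FPKM. The part of these markers in the members' values was not tested.

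The parental libraries were compared to ask whether the lines chosen for knockout, which express POU2F3, differed in these genes from the 10 other lines. Their levels overlapped between the groups for 10 of 10 members, while 0.401% of tested genes had all knockout lines above the others and 0.25% all below. With limma on 13226 genes, 7 members were tested, all but CAV1, TGFB2 and TGFBR2, and 0 passed the adjusted threshold, beside 0.212% of genes higher and 0.0378% lower. At an unadjusted p under 0.05 there were 2 members, CAV2 higher and S100A6 lower, beside 4.6% of genes higher and 4.06% lower. POU2F3 was 189 to 387 FPKM in the knockout lines and 0 to 0.608 FPKM in the others. Each line is 1 library, so neighbours in the orders below have no error of their own and cannot be told apart.

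CAV2 had 5.29, 3.72, 2.63 and 0.101 FPKM in parental NCI-H1048, NCI-H211, NCI-H526 and COR-L311. In the 10 other lines it ranged from 0 to 1.97 FPKM, with a median of 0.0746 FPKM, and the highest was NCI-H446. The first 3 of these knockout lines therefore lay above all 10 others and COR-L311 did not. The difference in mean log2(FPKM + 1) was 1.40 (1.72 ± 1.10, n = 4, against 0.32 ± 0.49, n = 10, SD; SE 0.43, limma adjusted p = 0.28). CAV1 was above 1 FPKM in only 2 of 14 lines, NCI-H211 at 8.77 FPKM and NCI-H446 at 8.82 FPKM, and at or below 0.551 FPKM in the rest.

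S100A6 had 1.37 to 107 FPKM in the knockout lines, with a median of 11.2 FPKM, against 10.3 to 792 FPKM in the others, with a median of 56.3 FPKM. NCI-H69 (792 FPKM), DMS79 (414 FPKM) and NCI-H146 (198 FPKM) led, then NCI-H526 at 107 FPKM, and COR-L311 was the lowest of all 14. The difference was -2.41 on the log2 scale (SE 1.09, limma adjusted p = 0.55). S100A6 thus stood lower on average in the POU2F3 lines than in the others, though NCI-H526 ranked 4 of 14. It was higher in sgPOU2F3 than in sgNeg cells in 4 of 4 lines, as were 9.81% of tested genes. In NCI-H526 the arms were nearly level (log2 ratio 0.04). Neither difference passed the threshold.

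CD44 was led by DMS79 at 64.4 FPKM, DMS114 at 38.4 FPKM, NCI-H69 at 21.7 FPKM and NCI-H446 at 19.1 FPKM. Parental NCI-H1048 and NCI-H211 followed at 5.79 and 5.31 FPKM, NCI-H526 had 0.118 FPKM, and COR-L311 was listed at 0. After knockout NCI-H1048 and NCI-H211, at 30.8 and 25.7 FPKM in their own tables, stood within the range of those first 4 lines. The parental difference was -1.02 (SE 1.16, limma adjusted p = 0.87).

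VIM spanned the widest range of the 10, with 305, 3.09, 1.40 and 0.154 FPKM in parental NCI-H1048, NCI-H211, COR-L311 and NCI-H526, against 0.183 to 2189 FPKM in the others, with a median of 5.97 FPKM. DMS114 was the highest at 2189 FPKM and NCI-H446 followed parental NCI-H1048 at 162 FPKM. DMS114 also had 512 FPKM of COL3A1 and a fibroblast marker sum of 925 FPKM, the highest of the 14, and the part of that in its VIM level was not tested. The difference was -0.69 (SE 1.79, limma adjusted p = 0.95).

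THBS1 and FN1 were both led by NCI-H1048, at 8.25 and 37.4 FPKM. The next lines were NCI-H69 for THBS1, at 3.61 FPKM, and NCI-H510 for FN1, at 15.6 FPKM. The differences were 0.73 for THBS1 (SE 0.53, limma adjusted p = 0.76) and 0.14 for FN1 (SE 0.85, limma adjusted p = 0.98). TAGLN was the flattest member, with 3.08 to 6.31 FPKM in the knockout lines and 1.53 to 7.14 FPKM in the others (difference 0.18, SE 0.35, limma adjusted p = 0.93). The ligand and its receptor were faint in the knockout lines, with TGFB2 at 0.00525 to 0.489 FPKM and TGFBR2 at 0.00673 to 0.294 FPKM. In the others TGFB2 reached 6.75 FPKM in NCI-H69 and 5.21 FPKM in NCI-H510, and TGFBR2 5.60 FPKM in NCI-H446. The 82.5 FPKM of TGFB2 and 16.8 FPKM of TGFBR2 in NCI-H211 sgPOU2F3 cells were above every parental value, though the tables were scaled separately.

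**Figure D4:**
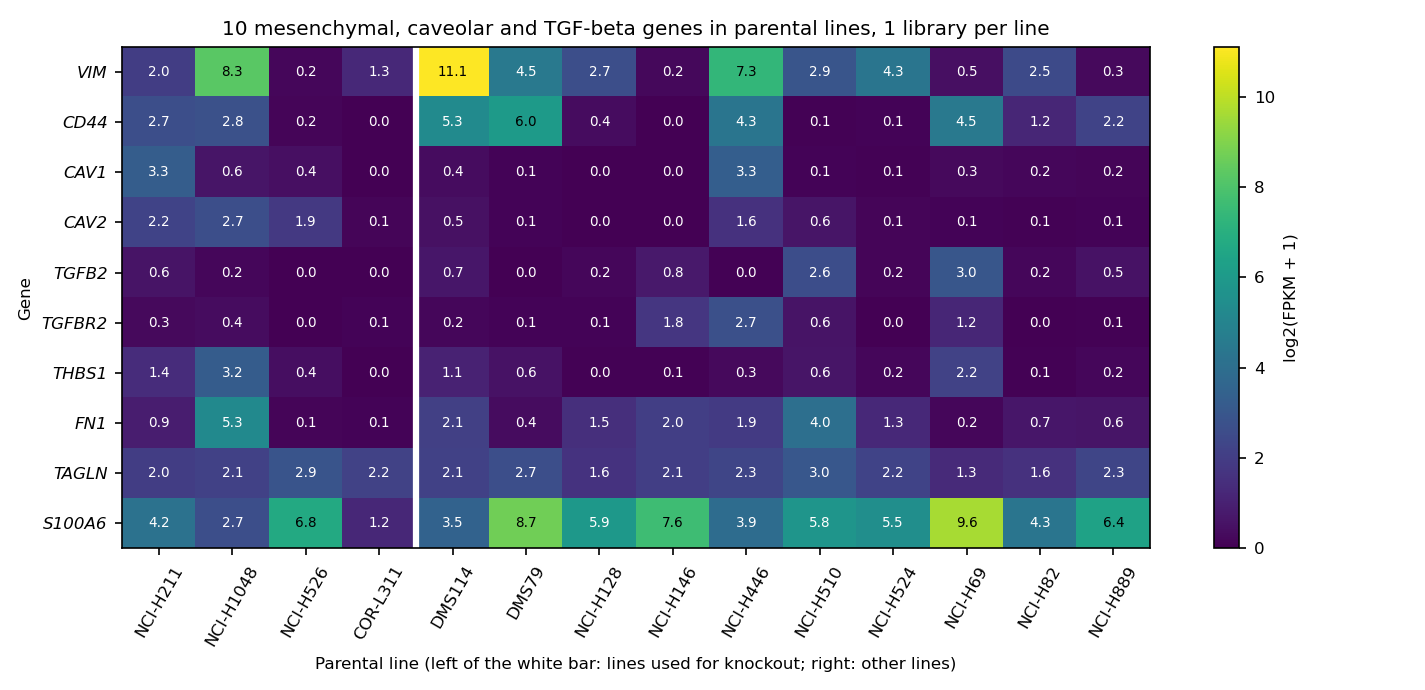
Heat map of log2(FPKM + 1) in the parental libraries, with genes as rows and 1 library per column; the 4 knockout lines stand left of the white bar and the 10 other lines right of it. High cells fall in different lines for different genes (VIM in DMS114, S100A6 in NCI-H69, FN1 in NCI-H1048), and for CAV2 3 knockout lines lie above each of the other lines.

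The sgNeg column and the parental library of the same line were within 1 on the log2 scale in 39 of 40 pairs of member and line, with a median absolute difference of 0.20. The exception was THBS1 in NCI-H1048, at 2.37 FPKM in sgNeg cells and 8.25 FPKM in parental cells (1.46). Over the 14 parental libraries the 45 pairs of members had a median Spearman rho of 0.165, with 35 pairs above 0 and 9 of at least 0.5. CAV1 and CAV2, neighbours on the chromosome, were the most alike at 0.739. The points share libraries whose depth differs, and the values are a description.

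The genes most like each member over the 14 parental libraries were, by Spearman rho, NRCAM for S100A6 (0.938), C19orf60 for CAV1 (0.931), AKR1C1 for TGFBR2 (0.908), FERMT2 for VIM (0.890) and TIMM21 for TGFB2 (0.881). They were ID3 for CD44 (0.877), SIDT2 for TAGLN (0.877), ERVMER34-1 for CAV2 (0.862), SERTAD1 for THBS1 (0.837) and SLC30A7 for FN1 (0.837). The knockout ratios of such genes were not always like those of the member. In NCI-H211, where VIM had a log2 ratio of 5.27, FERMT2 had 1.21, ADAMTS7 (rho 0.864) had -0.06, and FSTL1 (rho 0.864) had 5.81. For CAV2, ERVMER34-1 had -0.60 in NCI-H211, and for S100A6, NRCAM had -0.53.

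FN1 overlaps ATIC, and THBS1 overlaps FSIP1, in RefSeq on GRCh38.p14. In NCI-H211 ATIC had 74.8 FPKM in sgPOU2F3 and 68.8 FPKM in sgNeg cells, a log2 ratio of 0.12 beside 4.27 for FN1. FSIP1 was at most 0.848 FPKM in any knockout column, below the 73.4 FPKM of THBS1 in NCI-H211. In NCI-H526 FSIP1 had 0.760 FPKM in sgPOU2F3 and 0.848 FPKM in sgNeg cells, above THBS1 at 0.319 and 0.263 FPKM. It was also above THBS1 in both arms of COR-L311. The part of FSIP1 in the faint THBS1 values of these lines was not tested.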

How the data were processed

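RNA sequencing of polyA RNA gave 26 libraries, 12 of the knockout experiment and 14 of parental lines. The authors deposited FPKM values in 5 tables, 4 of knockout lines and 1 of parental lines, the last called RPKM in the labels. Per the submitters' processing notes the build was hg19 and the tools included Cuffdiff, Cufflinks and TopHat2, and their versions, roles and scaling are not given in the sources used here. The 8 knockout columns (1 sgNeg and 1 combined sgPOU2F3 column per line) and 14 parental columns were taken as log2(FPKM + 1).

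Genes were kept where 4 or more columns reached 1 FPKM. limma 3.58.1 in R 4.3.3 was fitted with a variance trend and Benjamini-Hochberg adjustment over all tested genes, with a threshold of 0.05. In the knockout fit each cell line is a block, since both arms share the line. The design had counted 12 knockout libraries, where the tables hold 8 columns. Within a line, genes averaging at least 1 FPKM were counted at a log2 ratio of at least 1, with no test. A gene under 1 FPKM in sgNeg cells was thus counted only where it was higher in sgPOU2F3 cells. Means and SD are over lines, so p-values measure the spread between lines. The tables give no counts, and depth is an estimate made from how finely low FPKM values are spaced, so no counting interval is given.

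The members, the 17 lists, the comparisons and the rule for named genes (all 10 members, up to 3 genes per list with the smallest p, and the 3 most like genes per member) were chosen with earlier results of these data known. Of the 3 most like genes, all are given for VIM and only the first for the rest. Other pseudocounts, filters, scalings, fits without the trend or the block, and fits without each line were tried. Fits were tested on simulated data. Promoter sequences are from RefSeq on GRCh38.p14, another build than that of the tables. Python 3.11.15 and pandas 2.3.3 made the tables.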

Additional observations from a re-analysis of the deposited data

Results flagged for a closer look

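In 11 of 30 groups of lines, 1 line stood apart from the others of its group by the ratio of its gap to the range of the group. The rule was applied to the members alone, and the share of all genes that it marks was not tested. A chance rate of about 1 in 20 groups assumes normally spread values, which faint transcripts need not have. The groups also share lines. Whether 11 of 30 is more than genes in general show therefore cannot be told.

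Of the knockout ratios, 6 were marked. In NCI-H211 these were the log2 ratios of FN1 (4.27, with the other lines between 0.04 and 0.29), TGFBR2 (3.87, others -0.16 to 0.29), CAV1 (3.74, others -0.06 to 0.53), TAGLN (3.44, others 0.08 to 0.55) and CAV2 (3.24, others -0.19 to 0.24). CD44 was marked for its lowest line, NCI-H526 at 0.92, below the 2.15 to 2.40 of the others.

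Among the 4 parental knockout lines, FN1 in NCI-H1048 stood at a log2(FPKM + 1) level of 5.26, with the others between 0.13 and 0.90. Among the 10 other parental lines, NCI-H446 was high for both caveolins, CAV1 at 3.30 (others up to 0.35) and CAV2 at 1.57 (others up to 0.62). THBS1 in NCI-H69 was at 2.20 (others up to 1.05) and FN1 in NCI-H510 at 4.05 (others up to 2.09).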

How the results depend on the processing

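Of 253 values of the members under alternatives, 242 kept their direction, and 239 of them were not marked as changing side of the threshold. The 239 include values of members not tested in the main fit, which have no side to keep. CD44 stayed higher after knockout in each alternative fit across lines, with means from 1.78 to 3.20 and limma adjusted p from 0.17 to 1.0. CAV2 across the knockout lines ran from -0.025 (without NCI-H211) to 1.12 when 1 line was left out. In the difference between day 4 and day 5 lines, CD44 turned to -1.32 with a pseudocount of 0.1, and CAV2 ran from -0.25 (without NCI-H211) to 3.18. In the parental comparison, leaving out 1 knockout line gave -2.46 to 0.22 for VIM (highest without NCI-H526), -1.08 to 0.63 for FN1 (lowest without NCI-H1048) and -0.012 to 0.27 for TAGLN (lowest without NCI-H526). VIM also turned to 0.14 without DMS114, and FN1 to -0.47 with a pseudocount of 0.1. Of the members not tested, without NCI-H211 the day difference of CAV1 was -0.30 and that of TGFB2 -0.35, and the parental difference of CAV1 was -0.098. The causes were not tested.

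The 2 genes called across the knockout lines, neither of them a member, became 1 under quantile normalization and 0 with a pseudocount of 0.1, without a filter, without the trend, and with no replicate block, that is without the pairing by cell line. Leaving out 1 line gave 0 in each case. For the difference between days the count was 0, and 0 to 488 when 1 line was left out (488 without NCI-H1048, 11 without NCI-H211). The 33 genes of the parental comparison became 21 to 50 when 1 knockout line was left out. At a log2 ratio of at least 2, members higher within a line fell to 1 in NCI-H1048, against 4 at the lower limit, and to 1 in COR-L311, against 3.

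Centring, quantile normalization, the stricter filter, the fit without the trend and that without the block were run for tested members only. Below about 0.05 FPKM a value rests on about 1 fragment in an sgNeg column, so faint members cannot be ranked there.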

Other observations

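A few genes outside the members stood out beside them, and were named after their values were seen. CYR61, a matricellular protein and relative of CTGF, had 463 FPKM in sgPOU2F3 and 1.43 FPKM in sgNeg cells of NCI-H211, and 486 and 254 FPKM in NCI-H1048. SMAD6, an inhibitor of bone morphogenetic protein signalling, had 9.53 FPKM in sgPOU2F3 and 0.216 FPKM in sgNeg cells of NCI-H211, and 17.1 and 6.52 FPKM in NCI-H1048. MYL9, a light chain of smooth muscle myosin, had 63.7 FPKM in sgPOU2F3 and 7.07 FPKM in sgNeg cells of NCI-H211, and was at or below 0.489 FPKM in each remaining column.

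In NCI-H526, where no member was higher by at least 1 on the log2 scale among those counted, 4 of 11 counted S100 genes were, beside 1.86% of all counted genes. S100A11 had 1058 FPKM in sgPOU2F3 and 82.6 FPKM in sgNeg cells there, a log2 ratio of 3.66, and S100A16 had 6.51 and 0.897 FPKM. S100A6 was level in the same cells, at 109 and 106 FPKM. In COR-L311 4 of 7 counted S100 genes were higher, beside 3.98% of genes. S100A2, S100A14 and S100A16 in NCI-H526, and S100A6 and S100A14 in COR-L311, were under 1 FPKM in sgNeg cells. They were counted only because they were higher in sgPOU2F3 cells, so their direction was set by the counting rule. Each of these values is a single pair of columns with no test.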
